A study of Mus musculus with 2 samples.

Results

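The genes described here encode the conjugating enzymes of drug and hormone metabolism: glutathione S-transferases (Gst), UDP-glucuronosyltransferases (Ugt) and cytosolic sulfotransferases (Sult). They were chosen by symbol (names starting with Ugt1 to Ugt3, with Gst and a class letter a, k, m, o, p, t or z, or with Sult and a digit). Of 23123 gene symbols in the data, 63 belong to these families, 22 of them Gst, 20 Ugt and 21 Sult. RNA came from medullary thymic epithelial cells (mTEC), which display proteins of many tissues to developing T cells. Cells were sorted by MHC class II from the thymi, pooled, of WT B6 mice, with no treatment or age stated. The MHC-II-high and the MHC-II-low group each gave 1 poly(A)-selected library. Sequencing was paired-end with 100 bases per read for the high library but single-end with 50 bases for the low one, so read type and group cannot be told apart.

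These enzymes make small molecules easier to excrete by attaching a polar group. Gst enzymes attach glutathione to electrophiles such as lipid aldehydes, Ugt enzymes attach glucuronic acid from UDP-glucuronic acid to bilirubin, steroids and drugs, and Sult enzymes attach sulfate from the donor PAPS to steroids, phenols and amines. They are best known from liver, gut and kidney, and many members are close copies that lie in clusters.

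Values are RPKM, read numbers set relative to transcript length and to the depth of the library, so levels can be set side by side between genes. The values imply a depth of about 114700000 reads (high) and 20900000 reads (low), a ratio of 5.5. A change is log2((high + 1)/(1.21 x low + 1)), where 1.21 sets the median ratio of well-expressed genes to 0 on the log2 scale and 1 RPKM is the pseudocount, which understates the change of low genes. A gene was kept where its mean reached 0.5 RPKM, and "higher" or "lower" below means at least 2-fold unless a value says otherwise. With 1 library per group there is no replicate check and no test, and each statement describes these libraries. The mTEC genes Epcam (198 against 127 RPKM), Krt8 (1016 against 701 RPKM) and Aire (122 against 15.9 RPKM) were present in both libraries. Of the 9 mTEC markers 5 were higher, Aire among them, and 2 were lower, Krt5 (448 against 770.4 RPKM, -1.05) and Krt14 (231 against 566 RPKM, -1.57). In bulk RNA, fewer cells of a type and less RNA per cell cannot be told apart.

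Many of these genes are so alike that a read may belong to more than 1 of them, and the sequences show for which values this matters. In GENCODE M21 transcripts (build GRCm38), the source of all coding sequences shown, 43 of the 63 members shared at least 1 window of 50 bases (the read length of the low library) with a transcript of another gene, and 14 shared 50% or more of their windows. Among the alpha-class genes, Gsta1 shared 89.7% of its 50-base windows and Gsta2 64.2%, whereas Gsta3 and Gsta4 shared 0%. With windows of 100 bases, the read length of the high library, the shares were 81.8% for Gsta1 and 35.02% for Gsta2. Windows stand for single reads, and the mates in the paired-end high library were not considered. The coding sequences of Gsta1 (672 bases) and Gsta2 (669 bases) differed at 14 of the 669 bases compared, besides a gap of 3 bases. The first 60 coding bases, shown because a single read that lies within them cannot be assigned to 1 of these genes, are identical.
Gsta1: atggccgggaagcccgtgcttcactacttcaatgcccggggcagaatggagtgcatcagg
Gsta2: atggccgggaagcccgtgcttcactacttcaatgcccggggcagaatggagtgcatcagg

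The pi class, like the alpha class, holds both near-identical genes and a gene that shares no window. Gstp1 and Gstp2 differed at 12 of 633 coding bases (98.1% identical), and Gstp3 differed from Gstp1 at 180 (71.6% identical) and shared 0% of its windows with any other gene. The first 60 coding bases follow, with capitals where a base differs from Gstp1.
Gstp1: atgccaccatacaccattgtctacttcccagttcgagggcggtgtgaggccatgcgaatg
Gstp2: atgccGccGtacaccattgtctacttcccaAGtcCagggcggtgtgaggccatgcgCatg
Gstp3: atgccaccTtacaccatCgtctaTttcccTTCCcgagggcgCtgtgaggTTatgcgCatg

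The mu-class genes Gstm1, Gstm3 and Gstm6, which carry the largest changes of that class, lay between these cases. Gstm3 differed from Gstm1 at 69 of 657 coding bases and Gstm6 at 113. Of their 50-base windows, Gstm1 shared 23.1%, Gstm3 28.8% and Gstm6 11.8% with other genes, pseudogenes included. Capitals mark differences from Gstm1.
Gstm1: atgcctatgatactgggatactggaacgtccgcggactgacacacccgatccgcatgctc
Gstm3: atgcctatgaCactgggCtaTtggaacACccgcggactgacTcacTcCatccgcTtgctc
Gstm6: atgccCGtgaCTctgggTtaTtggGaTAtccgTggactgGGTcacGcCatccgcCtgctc

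Across the families, more members were higher in the high library than lower. Of the 63 members 41 were kept, and 17 of these (41.5%) were at least 2-fold higher and 1, Sult5a1, at least 2-fold lower. Over all 15590 kept genes the shares were 16.1% higher and 9.35% lower. A kept gene listed at 0 in the low library is at least 2-fold higher by construction, and 4 of the 17 are of this kind (Gstm3, Ugt2b35, Sult1b1 and Sult1e1), while such genes make up 5.32% of all kept genes. Among kept members above 0 in both libraries 13 of 37 were higher, beside 11.4% of all such genes, and 1 was lower, beside 9.85%. The other 22 members did not pass the filter.

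**Figure D1:**
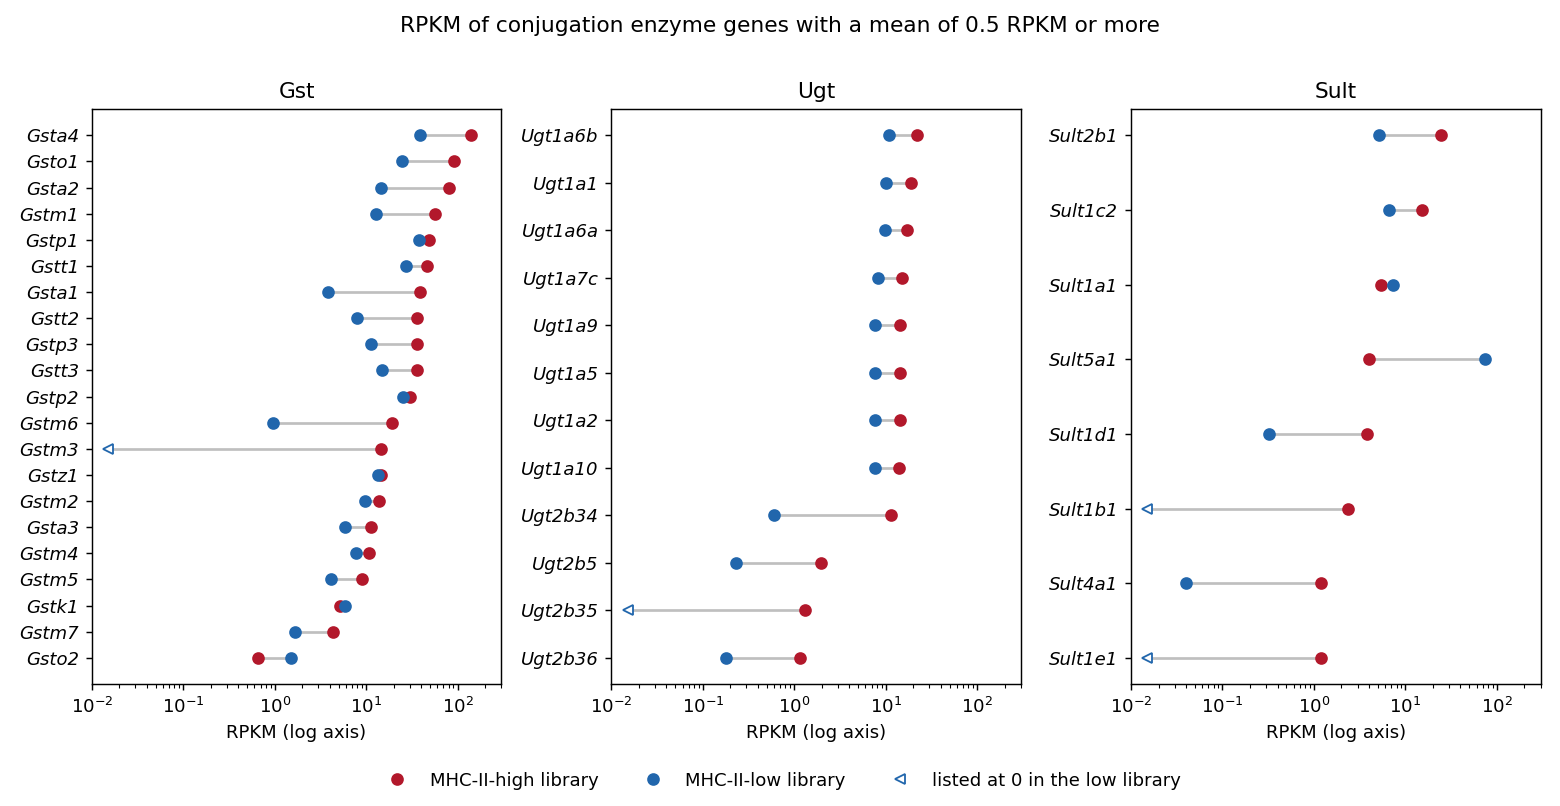
RPKM on a log axis of the 41 kept conjugation enzyme genes, by family, ordered by level in the MHC-II-high library (red) with the MHC-II-low library in blue and open triangles for genes listed at 0. Gsta4 has the highest level in the high library (142 RPKM) and Sult5a1 in the low library (75.1 RPKM).

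Glutathione S-transferases had the highest summed level of the families in both libraries. Among their classes, alpha led in the high library (271 RPKM, pi 115 RPKM) and pi in the low library (74.0 RPKM, alpha 62.8 RPKM). Summed over 22 genes, their level before scaling was 744 against 269 RPKM, a sum in which reads of near-identical copies may be credited to more than 1 gene. Of 21 kept Gst genes 9 were higher (42.9%) and 0 lower, beside 16.1% and 9.35% of all kept genes. The median log2 change was 0.85, beside 0.03 over all kept genes. Counting only the 12 kept genes that share under 10% of their windows, 4 were higher (Gsta4, Gsto1, Gstp3 and Gstt2) and the median was 0.53.

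Gsta4, the alpha-class enzyme that clears the lipid aldehyde 4-hydroxynonenal, had 142 against 38.7 RPKM (high against low, as in all pairs of values), a log2 change of 1.58. Its counting interval (95%, exact binomial, on the ratio without pseudocount) ran from 1.497 to 1.71, which covers counting error only. Gsta4 was the most abundant member of the high library, and its sequence shares no window with another gene. Gsta2 had 80.0 against 14.4 RPKM (2.14) and Gsta1 38.4 against 3.78 RPKM (2.82). The split between Gsta1 and Gsta2 is uncertain for the reasons shown in their sequences, and most windows of Gsta1 also occur in the provisionally named gene Gm3776. Gsta3, the mouse enzyme that detoxifies the epoxide of aflatoxin, differed less, with 11.2 against 5.93 RPKM (0.57).

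The mu class ranged from near equality to the highest positive changes among all members. Gstm1, a major cytosolic form in liver, had 57.1 against 12.8 RPKM (1.82). Gstm6 had 19.2 against 0.956 RPKM (3.23), or 2546 against 23 reads. Gstm3 had 14.6 RPKM against a listed 0. From its 2196 reads in the high library, the ratio of depths and the scaling, 330 reads would be expected in the low one. Gstm2 (13.9 against 9.74 RPKM, 0.23) and Gstm4 (10.7 against 7.68 RPKM, 0.19) were close to equal, and Gstm5 (9.05 against 4.15 RPKM, 0.74) and Gstm7 (4.38 against 1.65 RPKM, 0.85) lay between. Gstm7 passed 2-fold without scaling (1.02) and with a pseudocount of 0.1 RPKM (1.10). The 7 mu-class genes thus did not share a size of change, and the 2 largest belong to genes that share part of their windows with others.

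Of the pi class, 1 of 3 genes was higher. Gstp3 had 35.7 against 11.3 RPKM, a change of 1.33 with a counting interval from 1.16 to 1.62. Gstp1, which conjugates electrophiles and binds the stress kinase JNK, had 48.5 against 37.5 RPKM (0.10), and Gstp2 had 30.3 against 25.2 RPKM (-0.01). The split between Gstp1 and Gstp2 is uncertain, since 62.3% and 72.6% of their windows are shared. The sign of Gstp2 depends on the scaling, and its change lay between -0.01 and 0.41 over the settings run.

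The other Gst classes differed among themselves. Gsto1, the omega-class enzyme that reduces dehydroascorbate and methylated arsenic, had 91.0 against 24.7 RPKM (1.58), whereas its relative Gsto2 had 0.665 against 1.52 RPKM (-0.77), or 97 against 41 reads. Of the theta class, which acts on small halogenated compounds and sulfate esters, Gstt2 was higher with 35.8 against 7.90 RPKM (1.80). Gstt3 had 35.5 against 15.03 RPKM, and its change of 0.93 passed 2-fold without scaling (1.19). Gstt1 had 45.8 against 27.0 RPKM (0.48), and Gstt4, under the filter, had 0.922 RPKM against a listed 0. The mitochondrial and peroxisomal kappa enzyme Gstk1 (5.22 against 5.92 RPKM, -0.39) and Gstz1, the zeta-class enzyme of tyrosine breakdown (14.5 against 13.6 RPKM, -0.16), showed small differences. The sign for Gstz1 turned to 0.24 with the 2 libraries set to the same upper quartile of genes above 0.

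**Figure D2:**
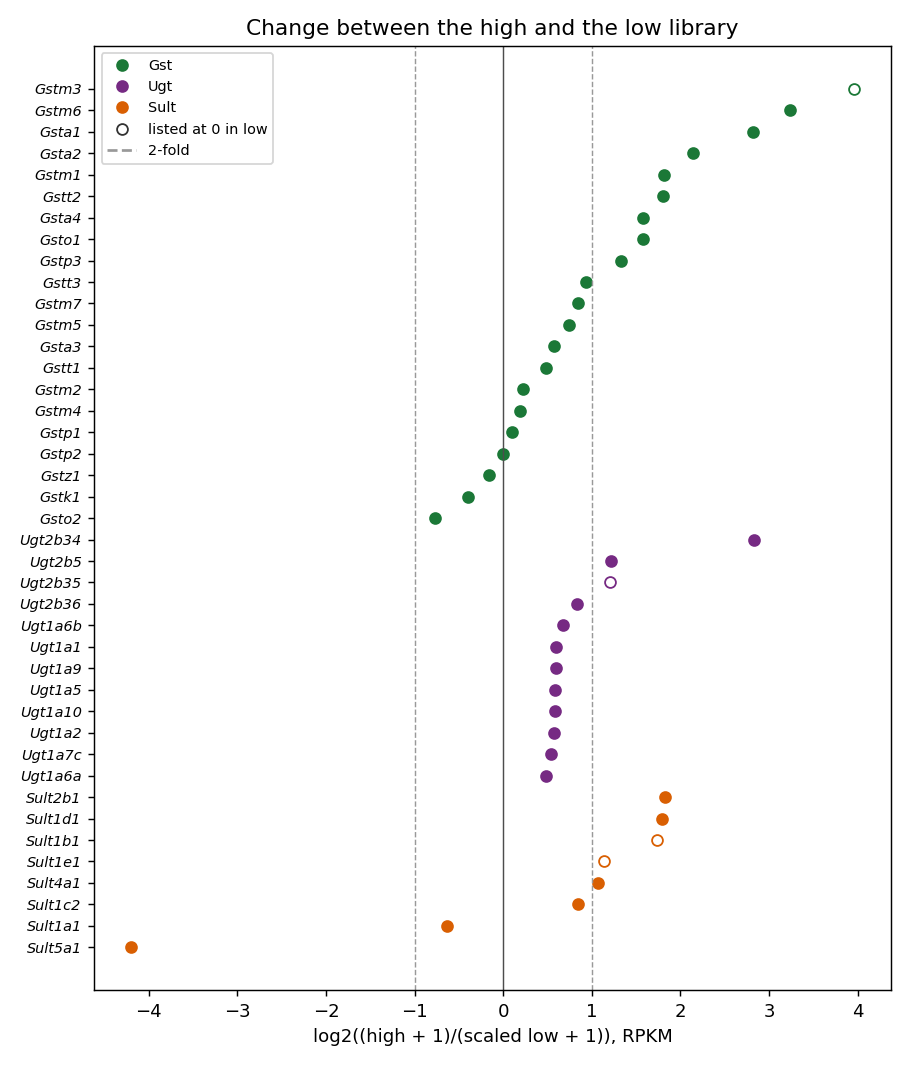
Log2 change of each kept conjugation enzyme gene between the libraries, with values above 0 higher in the MHC-II-high library, coloured by family, with open circles for genes listed at 0 in the low library and dashed lines at 2-fold. Gst changes run from -0.77 to 3.96 (Gstm3, listed at 0 in the low library), the 8 Ugt1a genes lie together between 0.49 and 0.68, and Sult5a1 lies alone at -4.21.

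The Ugt1a genes share most of their transcript, so their RPKM values are not independent. Each has its own first exon, which sets what the enzyme binds, spliced to exons common to all. In GENCODE transcripts a run of 1313 bases, 59.04% of the Ugt1a1 transcript, was identical in all 8 members, and it starts at coding base 869 of 1608. The first 60 bases of this common run are given with the first 60 coding bases of 3 members. Ugt1a6a and Ugt1a6b are identical over that stretch, and their coding sequences differ at 26 of 1596 bases, the first at base 138 and the last at base 819.
Ugt1a common run: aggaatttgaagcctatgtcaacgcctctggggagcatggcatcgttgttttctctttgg
Ugt1a1: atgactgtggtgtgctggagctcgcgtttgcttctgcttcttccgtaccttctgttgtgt
Ugt1a6a: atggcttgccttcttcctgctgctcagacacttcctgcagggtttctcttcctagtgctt
Ugt1a6b: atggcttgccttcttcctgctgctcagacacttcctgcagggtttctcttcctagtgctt

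All 8 Ugt1a genes were listed at moderate and similar levels, 14.1 to 21.8 RPKM (high) against 7.53 to 11.0 RPKM (low), with changes from 0.49 to 0.68. Multiplied by transcript length, the values of Ugt1a2, Ugt1a5, Ugt1a9 and Ugt1a10 came to almost the same number of reads, 3602 to 3629 (high) and 347 to 353 (low). These 4 genes were grouped after their values were seen. Above their median of 3609 and 350 reads, Ugt1a1, which conjugates bilirubin, had 1245 (high) and 119 (low) further reads. The phenol-conjugating Ugt1a6b had 2155 and 177 further reads, and Ugt1a6a 928 and 125, with an uncertain split between them. In GENCODE, 100% of the 50-base windows of Ugt1a6a and 80.7% of those of Ugt1a6b also occur in transcripts filed under Ugt1a7c. The transcript matched to the Ugt1a7c line shared 1300 of its windows with other genes, fewer than the 2248 of Ugt1a6a. Part of that overlap thus lies in other transcripts filed under Ugt1a7c, and whether the further reads belong to those was not tested. Scaled for depth, the log2 ratio of these further reads was 0.66 for Ugt1a1, 0.87 for Ugt1a6b and 0.16 for Ugt1a6a, beside 0.63 for the common reads. None of the 8 passed 2-fold with the main scaling, and Ugt1a6b did (1.08) with the 2 libraries set to the same upper quartile of genes above 0. The length of Ugt1a7c in GENCODE may differ from the authors', so its reads were not used.

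**Figure D3:**
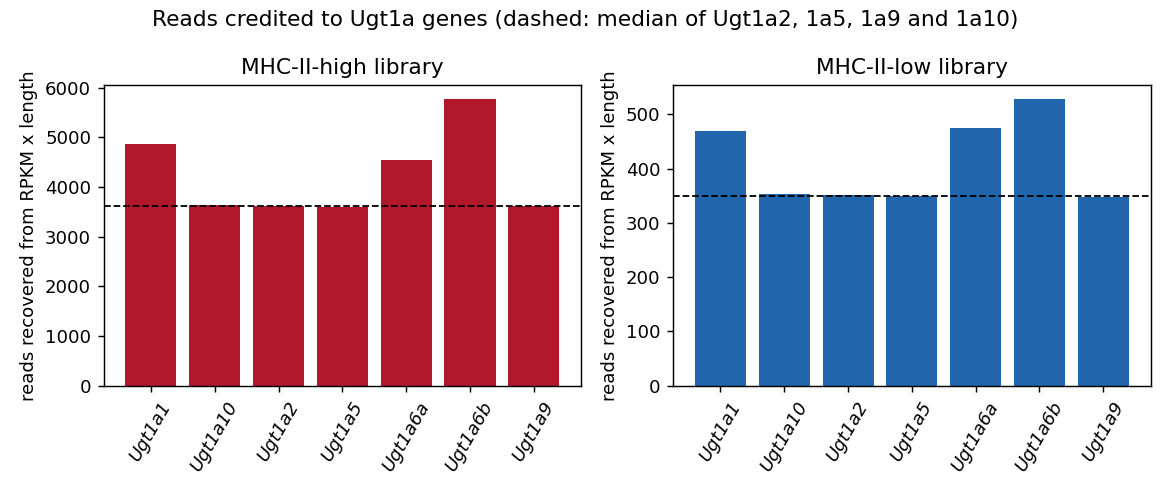
Reads recovered from RPKM and transcript length for 7 Ugt1a genes in the MHC-II-high (left) and MHC-II-low library (right), with a dashed line at the median of Ugt1a2, Ugt1a5, Ugt1a9 and Ugt1a10. Those 4 genes sit on the line at 3609 and 350 reads, and Ugt1a1, Ugt1a6a and Ugt1a6b stand above it in both libraries.

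Ugt2 genes, which conjugate steroids and bile acids, were mostly low and mostly found in the high library. Ugt2b34 was the only one above 2 RPKM, with 11.3 against 0.597 RPKM, or 3953 against 38 reads, a change of 2.84. Its counting interval without pseudocount ran from 3.51 to 4.47, and it shared 2.07% of its windows with other genes. Ugt2b5 had 1.97 against 0.228 RPKM (1.22) and shared 41.7% of its windows, mainly with Ugt2b38. Ugt2b36 had 1.16 against 0.177 RPKM (0.83), and Ugt2b35 had 1.30 RPKM against a listed 0. With a pseudocount of 5 RPKM only Ugt2b34 of the kept Ugt genes was 2-fold higher. The other 6 Ugt2 genes, among them the olfactory forms Ugt2a1 and Ugt2a2, stayed under 0.47 RPKM in the high library. In the low library 5 of them were listed at 0, each with fewer than 20 reads expected there. In that range 75.4% of all genes were listed at 0. Ugt3a1 (0.302 against 0.468 RPKM) and Ugt3a2 (0.258 RPKM against a listed 0) did not pass the filter either.

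Sulfotransferases held the 1 member that was lower in the high library. Of 8 kept Sult genes 5 were higher (62.5%, beside 16.1% of all kept genes), and 13 did not pass the filter. Of the 5, Sult1b1 and Sult1e1 are listed at 0 in the low library and so are higher by construction. Among kept Sult genes above 0 in both libraries 3 of 6 were higher, beside 11.4% of all such genes. Of these 3, Sult1d1 and Sult4a1 had 16 and 2 reads in the low library and passed the filter only through the high one. Passing in this way favours a higher call. Sult5a1 had 3.97 against 75.1 RPKM, or 1734 against 5959 reads from the shallower library. Its change of -4.21 lay between -4.48 and -3.42 over 12 settings, with a counting interval from -4.59 to -4.44 without pseudocount, and it shared 1.78% of its windows. In the low library Sult5a1 was the most abundant of all 63 members, above Gsta4 at 38.7 RPKM. It makes up most of the Sult sum there, which was 94.6 RPKM with and 19.5 RPKM without it, against 58.9 and 55.0 RPKM in the high library. Fibroblast and endothelial markers were lower in the high library as well (9 of 10 and 10 of 10 genes). Their summed levels were 42.5 against 722 RPKM and 29.2 against 260 RPKM, with 0 of the 20 markers at 0 in either library, and their part in the Sult5a1 value was not tested.

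Sult2b1, which sulfates cholesterol and is known from skin, was the most abundant sulfotransferase of the high library with 24.7 against 5.18 RPKM (1.82), and its counting interval ran from 1.73 to 2.24. Sult1c2 had 15.2 against 6.63 RPKM (0.84, or 1.08 without scaling). Sult1d1, which sulfates catecholamines in mice, had 3.81 against 0.320 RPKM (1.79), or 1056 against 16 reads. The phenol sulfotransferase Sult1a1 went the other way without reaching 2-fold, with 5.37 against 7.34 RPKM (-0.63). Sult1b1, a form of liver and gut that acts on thyroid hormones, and Sult1e1, the oestrogen sulfotransferase, had 2.33 and 1.20 RPKM, each against a listed 0. The brain form Sult4a1 had 1.20 against 0.0402 RPKM (1.07), or 329 against 2 reads. Of the 5 higher genes only Sult2b1 passed 2-fold with a pseudocount of 5 RPKM.

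The Sult2a genes, which sulfate bile acids and dehydroepiandrosterone in liver, were at or next to 0. The highest of 8, Sult2a1, was listed at 0.0597 RPKM (7 reads) in the high library, and 4 of them (Sult2a2, Sult2a3, Sult2a7 and Sult2a8) were at 0 in both libraries. Sult3a1 had 8 reads in the high library, and Sult3a2 was at 0 in both. Sult1c1, Sult6b1 and Sult6b2 had 0.265, 0.152 and 0.525 RPKM, each against a listed 0. The low library had a listed 0 for each of the 8 Sult2a genes.

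Of the 63 members, 19 were above 0 in the high library and listed at 0 in the low library, and depth sets how far this can be read. With fewer than 20 reads expected there, 15 of 18 members (83.3%) were listed at 0, beside 75.4% of 4817 genes. With 20 to 200 expected reads, 3 of 11 members (Sult1b1, Sult1e1 and Ugt2b35) were listed at 0, beside 16.5% of 6460 genes. With more than 200, Gstm3 was 1 of 29 members, beside 0.649% of 9243 genes. A listed 0 may be a failed estimate, since Rps21, which encodes a ribosomal protein and is needed in every cell, had 144 RPKM against a listed 0.

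**Figure D4:**
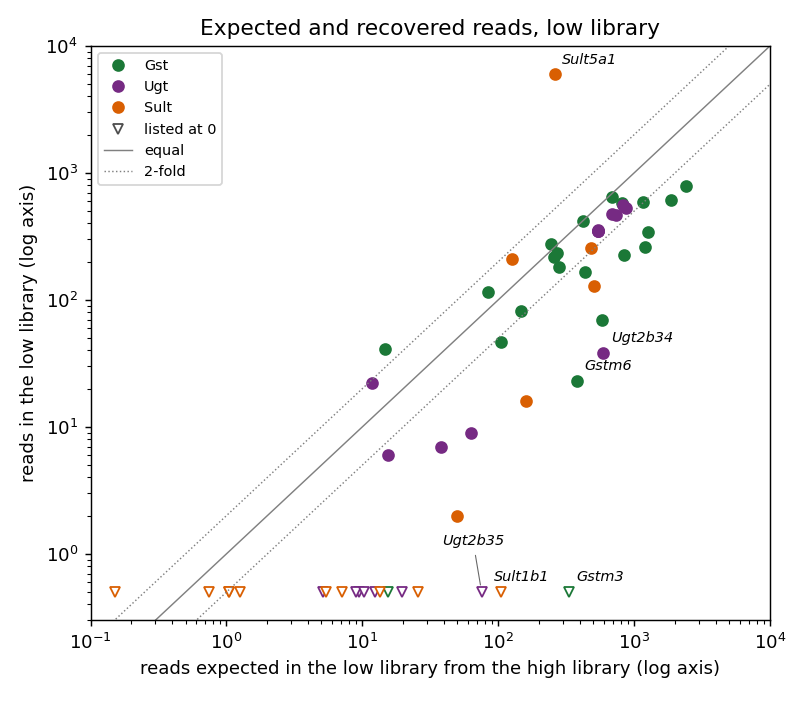
Reads of each member in the low library against the number expected there from the high library, both on log axes, with the line of equality, dotted lines at 2-fold and triangles, drawn near the bottom of the axis, for genes listed at 0. Members at 0 in both libraries are not drawn. Gstm3, with 330 expected reads, is the triangle farthest to the right, and Sult5a1 lies far above the line with 5959 reads where 261 were expected.

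Genes around the pathway (cofactor supply, conjugate removal, other conjugating enzymes and regulators) were described from lists. Of 87 matched partner genes 81 were kept, of which 13 were higher (16.0%) and 5 lower (6.17%), with a median of 0.14. The share higher was that of all kept genes (16.1%), and the share lower was under theirs (9.35%), so the counts do not set these genes apart, and the genes named next are a description. In the glutathione list of 19 genes, the glutathione synthetase Gss (16.4 against 5.21 RPKM, 1.25) and Ggt1, which breaks down extracellular glutathione (1.60), were higher, and the secreted peroxidase Gpx3 (194 against 340 RPKM, -1.08) was lower. Gclc, the rate-limiting enzyme of glutathione synthesis, had 14.7 against 9.41 RPKM (0.35). None of 7 kept genes for UDP-glucuronic acid supply or glucuronide removal passed 2-fold, and Ugdh, which makes UDP-glucuronic acid, had 13.9 against 9.33 RPKM (0.28).

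For sulfation, the PAPS synthase Papss2 (18.5 against 6.50 RPKM, 1.14), the sulfate transporter Slc26a2 (1.44) and the arylsulfatase Arsb (1.19) were higher. The tyrosylprotein sulfotransferase Tpst1 (3.07 against 12.7 RPKM, -2.00) and Arsa (-1.04) were lower. The main PAPS synthase by level, Papss1, had 53.7 against 34.5 RPKM (0.36). Among GST-fold relatives and microsomal enzymes 2 of 14 were higher, Clic3 (1.61) and Clic5 (1.06), and Mgst1 had 38.6 against 49.5 RPKM (-0.62). Other conjugating and related enzymes had 4 of 13 kept genes higher, Gnmt (1.73), Ephx2 (1.60), Nqo1 (1.03) and Glyat, listed at 1.03 RPKM against 0. The methyltransferases Nnmt (1.94 against 12.7 RPKM, -2.48) and As3mt (-1.20) were lower.

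Of 17 kept regulators, 0 were lower. The intestinal transcription factor Cdx2 was higher, with 1.77 against 0.179 RPKM (1.19). Nfe2l2, the oxidative stress regulator NRF2 that acts on many Gst genes, had 22.4 against 36.0 RPKM (-0.93). The xenobiotic receptor genes Nr1i2 (0.97) and Nr1i3 (0.89) were listed under 2 RPKM. Marker genes of tissues rich in conjugating enzymes were also higher in the high library, with 7 of 9 kept hepatocyte genes (summed level 190 against 32.6 RPKM, Fgb and Hpd at 0 in the low library) and 7 of 7 kept enterocyte genes (501 against 70.5 RPKM, Alpi at 0 in the low library). Over all kept genes 16.1% were higher. Dendritic cell and macrophage markers had 8 of 9 kept genes higher (summed level 553 against 143 RPKM), and most of that sum was Lyz2 (493 against 133 RPKM). Flt3, which was kept, and Xcr1 and Siglech, which did not pass the filter, were at 0 in the low library. The part of any of these cells in the values of the conjugating enzymes was not tested.

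Promoter sequences (RefSeq, build GRCm38.p6, 250 bases before to 50 after a start) were matched for 55 of the 63 members, 66 windows in all, and searched on both strands for 2 motifs. The antioxidant response element core TGACNNNGC was found in 3 windows (4.55%), beside 12.4% of 32851 promoters, and the xenobiotic response element core GCGTG in 12 (18.2%), beside 32.4%. These matches describe letters in the windows and not bound sites. The 3 matches of the antioxidant motif are shown with the motif in capitals, 5′ to 3′ along the gene's strand.
Gsta3, ARE, chr1:21240456-21240480, plus strand: ctcaggcaTGACATTGCatttttct
Gstm5, ARE, chr3:107895804-107895828, plus strand: ccgcccacTGACCACGCggagggcg
Gstm7, ARE, chr3:107931727-107931751, minus strand: tgaagaccTGACAAAGCgaagccaa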

How the data were processed

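The authors deposited 1 column of RPKM per library, over the same 30794 RefSeq transcript lines. Build mm9 and the tools Bowtie 1.0.0, CASAVA and bedtools come from the submitters' processing notes, which give no roles. No source used here gives the handling of reads shared by paralogs or isoforms. The kit does not keep strand, per the labels' protocols, so antisense reads cannot be told apart.

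Lines were named through RefSeq (30212) or GENCODE metadata (184), and 398 unnamed lines were left out. A gene's value is its line with the highest mean RPKM. The low library was multiplied by 1.21, from 5167 genes above 0 in both whose mean reached 10 RPKM. Reads were recovered from the steps of RPKM times GENCODE M21 transcript length. Among transcripts with 1 to 10 reads, 76.9% (high) and 65.3% (low) were no further than 0.1 from a whole number. All 63 members had a length. To get the reads expected in the low library, high-library reads were divided by 5.5 and by 1.21. Counting intervals are 95% exact binomial intervals and cover counting error only. They treat each recovered read as independent, also in the paired-end library. No test was made, with 1 library per group.

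Every member whose mean reached 0.5 RPKM was named, and of the partner lists those past 2-fold and some of the most abundant. A partner gene past 2-fold is not reported here. The members and lists were chosen with earlier results of these data known. Motifs, and the grouping of Ugt1a genes by reads, were chosen after the data were seen. The procedure was tested on simulated data. Tools were scipy 1.17.1, pandas 2.3.3, numpy 2.4.6 and matplotlib 3.10.9 under Python 3.11.15.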

Additional observations from a re-analysis of the deposited data

How the results depend on the processing

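Of 18 members past 2-fold, 12 kept their call in every setting that included them. Settings that only change which genes enter leave each change as it is, so they could not alter a call. That 0 members changed sign was given in advance, since the scalings shift a change by at most 0.436. Of the 12, Gsta1, Gsta2, Gstm1, Gstm3 and Gstm6 did not enter the setting limited to under 10% of windows shared. The other 6 (Sult1b1, Sult1d1, Sult1e1, Sult4a1, Ugt2b5 and Ugt2b35) were under 2-fold with a pseudocount of 5 RPKM, and the cause, by construction, is their low level. With that pseudocount 1 Ugt gene, 1 Sult gene, 8 partner genes and 1525 genes in all passed 2-fold (higher ones for Ugt and Sult), against 3, 5, 18 and 3965. With a mean of 5 RPKM or more required, 1 of 9 Ugt genes and 1 of 4 Sult genes were higher, and 1 Sult gene was lower. Of 8325 genes in all, 1010 were higher (12.1%) and 822 lower, together 1832. The main filter kept 12, 8 and 15590, so these counts fall partly because fewer genes enter. With a pseudocount of 0.1 RPKM, 1 Gst gene was 2-fold lower (Gsto2, -1.34). Without genes at 0 in either library, 3 of 6 Sult genes were higher, of which Sult1d1 and Sult4a1 passed the filter only through the high library. Among members with under 10% of windows shared, a choice made after seeing the data, 4 of 12 kept Gst genes (33.3%) were higher. This compares with 9 of 21 (42.9%) without that limit, and the median change was 0.53 against 0.85.

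Higher ones made up 63.3% of all genes past 2-fold. This was 74.9% without scaling, 69.6% with the same RPKM sum, 53.6% without genes at 0 and 80.4% with the same upper quartile of genes above 0, a scaling added after the data were seen, which moves the median of all genes from 0.03 to 0.37. Of 23 members under 2-fold, 7 passed it in 1 or more settings. No paired analysis was possible because each group has 1 library. With fewer than 20 reads expected, a listed 0 in the low library was the rule among all genes (75.4%), which limits what a 0 shows for such members.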
